A study of Mus musculus with 2 samples.

Results

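The genes described are the protein-coding genes of the deposited count table whose symbol starts with Mrpl or Mrps and a number, the naming scheme of the large and small subunits of the mitochondrial ribosome. Of 78 such rows, 77 had at least 10 reads over both libraries and were kept, out of 17709 genes that passed the same minimum. The lowest of the 77 was Mrps25, with 308 reads over both libraries, and the one row left out was Mrpl53, with 0 reads in each. By the known position of the protein, 50 of the 77 belong to the large subunit and 26 to the small subunit. The remaining one, Mrps36, carries the name but is now regarded as a subunit of the alpha-ketoglutarate dehydrogenase complex.

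RNA was sequenced from pancreatic islets, the hormone-secreting cell clusters of the pancreas, in 1 library of male C57BL/6 mice carrying a Brsk2 transgene and 1 library of male C57BL/6 wild-type mice. Mice of both groups were 10 to 12 weeks old, and both had been given doxycycline, a drug used to switch on inducible transgenes, for 4 days in their drinking water at 8 to 10 weeks. Brsk2, a kinase related to AMPK, is abundant in brain and present in islets, and the comparison asked how islet expression differed when it was over-expressed. The transgenic library is titled as one line. No source used here names the promoter of the transgene or says whether a library was 1 mouse or a pool. With 1 library per group there is no spread between animals, so no difference below was tested across animals, and each interval covers counting error only.

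Gene counts summed to 16832312 in the transgenic and 20389499 in the wild-type library. Brsk2 itself had 1609 reads in the transgenic and 732 in the wild-type library, a ratio of 2.59 [2.37, 2.83] after scaling, in the direction of its label. The tissue label was checked on 12 beta cell markers, which took 19.8% of transgenic and 25.3% of wild-type reads. Acinar markers, of the enzyme-secreting exocrine pancreas, took 5.69% of transgenic and 1.26% of wild-type reads, and all 16 were called higher (at least 1.5-fold, with a 95% counting interval above 1), at a median log2 ratio of 2.21. Of the other marker lists, 7 of 12 beta cell markers were called lower and none higher, while 3 of 7 alpha cell, 5 of 9 fibroblast and mural, 4 of 8 measured immune, 1 of 5 delta and gamma cell and 2 of 7 ductal markers were called higher and none lower. None of 6 endothelial markers was called, though the intervals of 4 lay below 1, against 22.1% of all genes measured. The 5 fibroblast and mural markers called were Col1a1, Col1a2, Col3a1, Dcn and Lum, whereas Pdgfra, Pdgfrb, Acta2 and Rgs5 were not. Intervals lay below 1 for 2 measured immune markers, Cd68 and Cd79a, and above 1 for 2 beta cell markers, Nkx6-1 and Pcsk1. Over all genes measured 7.78% were called higher and 5.89% lower. The part of cell composition in the values below was not tested, and in whole islets fewer cells of a type and less RNA per cell cannot be told apart.

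Mitochondria keep their own ribosome, which translates the few mRNAs of the mitochondrial genome into membrane subunits of the respiratory chain and the ATP synthase. Its rRNAs are encoded in mitochondrial DNA, but all its proteins are encoded in the nucleus, made in the cytosol and imported. Some descend from bacterial ribosomal proteins and others are specific to mitochondria. Beta cells rely on mitochondrial ATP to couple glucose to insulin secretion, and the promoters of mitochondrial genes are known for sites of NRF1, of the ETS factor GABPA and of YY1, on which the coactivator PGC-1alpha acts.

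Promoter sequences were taken for members at the ends of the ratio range and for an abundant member, because the DNA between the start site and its upstream flank is where those factors would bind. Each line gives 250 bases before and 50 bases after a RefSeq start on GRCm38.p6, 5′ to 3′ on the gene's strand. Capitals mark matches, on either strand, to GCGCATG (NRF1 core), CCGGAAG (ETS site of GABPA) or AAGATGG (YY1). The lowest 4 ratios include Mrpl12 (chr11:120484387-120484686, plus strand), Mrps18b (chr17:35916391-35916690, minus strand) and Mrps12 (chr7:28741772-28742071, minus strand). The highest is Mrps6 (chr16:92058086-92058385, plus strand), and Mrps21 (chr3:95871465-95871764, minus strand) is among the most abundant members.
Mrpl12 promoter: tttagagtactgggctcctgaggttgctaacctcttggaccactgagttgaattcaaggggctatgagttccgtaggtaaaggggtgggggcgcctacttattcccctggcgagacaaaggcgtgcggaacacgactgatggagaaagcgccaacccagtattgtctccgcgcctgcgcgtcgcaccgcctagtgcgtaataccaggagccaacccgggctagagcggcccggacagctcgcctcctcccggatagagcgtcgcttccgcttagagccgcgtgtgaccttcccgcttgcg
Mrps18b promoter: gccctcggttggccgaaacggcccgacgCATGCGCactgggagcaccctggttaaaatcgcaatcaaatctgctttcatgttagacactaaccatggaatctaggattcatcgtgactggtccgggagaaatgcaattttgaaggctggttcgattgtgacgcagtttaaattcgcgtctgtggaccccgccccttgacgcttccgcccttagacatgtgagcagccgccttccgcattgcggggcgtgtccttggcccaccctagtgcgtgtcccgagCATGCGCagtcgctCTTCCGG
Mrps12 promoter: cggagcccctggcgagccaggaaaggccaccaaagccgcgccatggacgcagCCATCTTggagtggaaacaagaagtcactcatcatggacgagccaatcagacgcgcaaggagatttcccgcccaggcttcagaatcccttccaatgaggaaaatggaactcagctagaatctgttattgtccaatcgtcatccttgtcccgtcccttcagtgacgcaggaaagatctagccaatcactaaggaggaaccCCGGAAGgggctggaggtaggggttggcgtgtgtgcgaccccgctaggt
Mrps6 promoter: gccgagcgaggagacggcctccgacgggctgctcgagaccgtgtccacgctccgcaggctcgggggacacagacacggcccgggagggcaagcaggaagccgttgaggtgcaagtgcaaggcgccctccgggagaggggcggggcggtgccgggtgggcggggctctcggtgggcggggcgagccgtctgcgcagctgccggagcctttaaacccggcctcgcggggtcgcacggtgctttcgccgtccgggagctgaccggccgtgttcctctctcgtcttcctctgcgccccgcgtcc
Mrps21 promoter: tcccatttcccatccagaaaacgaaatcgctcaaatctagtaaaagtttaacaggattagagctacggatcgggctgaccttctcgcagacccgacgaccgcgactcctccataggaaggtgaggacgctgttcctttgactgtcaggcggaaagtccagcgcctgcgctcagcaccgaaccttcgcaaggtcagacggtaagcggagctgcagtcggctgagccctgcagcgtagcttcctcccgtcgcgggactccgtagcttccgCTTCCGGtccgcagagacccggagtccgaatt
The printed Mrpl12 and Mrps6 windows, at opposite ends of the ratio range, hold none of the 3 motifs. The Mrps18b window holds the NRF1 core with its leftmost base 222 bases before the start and again at position 30, counted from 1 at the start, and an ETS match at position 44. In the Mrps12 window an ETS match begins at position 2 and a YY1 match 198 bases before the start. The Mrps21 window has an ETS match at position 19.

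Over the whole group, RefSeq promoter windows were found for 68 of the 77 members, 74 windows in all. The ETS motif stood in 25 of 74 windows (33.8%), against 8.86% of all 32851 promoter windows and 15.6% of 14329 windows of measured protein-coding genes. YY1 letters stood in 13 of 74 (17.6%), against 6.34% and 6.62%, and the NRF1 core in 8 of 74 (10.8%), against 3.91% and 6.23%. The GC box GGGCGG, the site of SP1, stood in 52.7%, against 35.7% and 59.9%, and the TATA box TATAAA in 6.76%, against 13.6% and 7.54%. The windows were searched on both strands, and matches of different motifs could overlap. A match is a run of letters and not a measured binding site. The 25 members with an ETS match had a median log2 ratio of -0.01, against 0.06 for the 43 without; the medians with and without a match were 0.01 and -0.00 for YY1, and -0.01 and 0.01 for the NRF1 core.

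The mitochondrial ribosomal protein mRNAs were abundant at a like level in both libraries. Together they took 0.197% of transgenic reads (exact binomial interval 0.195 to 0.199) and 0.194% of wild-type reads (0.192 to 0.196). Summed CPM (reads relative to library size, scaled by TMM factors) were 1940 in the transgenic and 1970 in the wild-type library, a ratio of 0.985 [0.971, 0.999]. With plain library totals the same ratio was 1.01 [0.997, 1.03], so the side of 1 depended on the scaling. The large subunit summed to 1292 CPM in the transgenic and 1293 CPM in the wild-type library, a ratio of 0.999 [0.981, 1.02]. The small subunit summed to 636 CPM in the transgenic and 663 CPM in the wild-type library, a ratio of 0.960 [0.936, 0.985], which was 0.991 [0.965, 1.02] without Mrps12. The subunit ratios are given with TMM factors only. Scaling moves all ratios by the same factor, so with library totals both would be higher. The large subunit, at 0.999, would then lie above 1 and the small subunit nearer to 1. Their intervals under that scaling were not computed, so neither subunit is shown to differ from 1 whatever the scaling.

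Levels differed far more between members than between libraries. Per kilobase of the exon length the authors give, members ran from 1.33 to 56.6 CPM per kb in the transgenic library and from 1.202 to 67.0 CPM per kb in the wild-type library, with medians of 9.33 in transgenic and 9.76 in wild type. The most abundant was Mrps21, a relative of bacterial ribosomal protein S21, at 56.6 CPM per kb in the transgenic library, against 51.2 in the wild-type library. Mrps12, the relative of the bacterial decoding-site protein S12, stood at 46.5 CPM per kb in the transgenic and 67.0 in the wild-type library, so these members exchanged the first place. Next came Mrpl54, a mitochondria-specific protein, at 39.7 CPM per kb in transgenic and 41.0 in wild type. Mrps28 stood at 29.9 in transgenic and 36.9 in wild type, and Mrpl14, a relative of bacterial L14, at 30.9 in transgenic and 29.4 in wild type. The least abundant were Mrps25 (1.33 in transgenic and 1.202 in wild type), Mrps35 (1.49 in transgenic and 1.54 in wild type), Mrps30 (1.89 in transgenic and 2.04 in wild type), Mrpl15 (2.09 in transgenic and 2.32 in wild type) and Mrpl47 (2.30 in transgenic and 2.74 in wild type). Of these, Mrps25 shares 69.8% of its exon bases with Nr2c2 on the opposite strand, and Mrpl47 shares 24.2% with other genes. The part of shared exons in these levels was not tested. The lengths equal the union of all GENCODE M21 exons for 72 of the 77 members, and with the length of 1 principal transcript 3 of the 5 most and 3 of the 5 least abundant members were shared. On that scale Mrpl52 came second in the transgenic library, at 78.1 CPM per kb of transcript against 66.0 in the wild-type library.

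**Figure D1:**
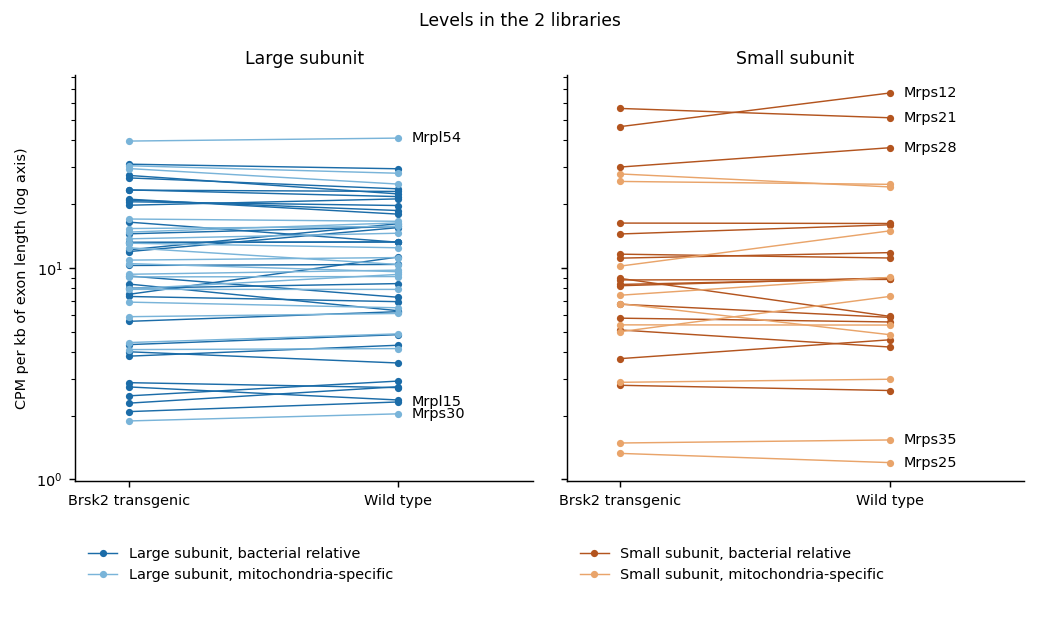
Level of each member except Mrps36 in the Brsk2 transgenic (left) and wild-type (right) library, in CPM per kb of exon length on a log axis. There is 1 line per gene, with colours for the class. Large-subunit genes are in the left panel and small-subunit genes in the right. Lines are mostly flat beside a range from 1.202 to 67.0 CPM per kb in the wild-type library, and Mrps12 and Mrps21 cross.

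Member by member, differences between the libraries were small. By the rule of 1.5-fold given above, 1 of 77 members was higher in the transgenic library, against 7.78% of all genes measured, and 1 was lower, against 5.89%. Among 6451 protein-coding genes with 308 to 2227 reads, the range of the members, the shares called were 3.66% and 4.7%. The median log2 ratio was -0.01 over the members, 0.01 over all genes measured and -0.01 over protein-coding genes of the same range of reads. Of the members, 36 lay above a log2 ratio of 0 and 41 below, against 43 above and 34 below with library totals, and 25 above and 52 below when log2 ratios were centred within bins of gene length.

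**Figure D2:**
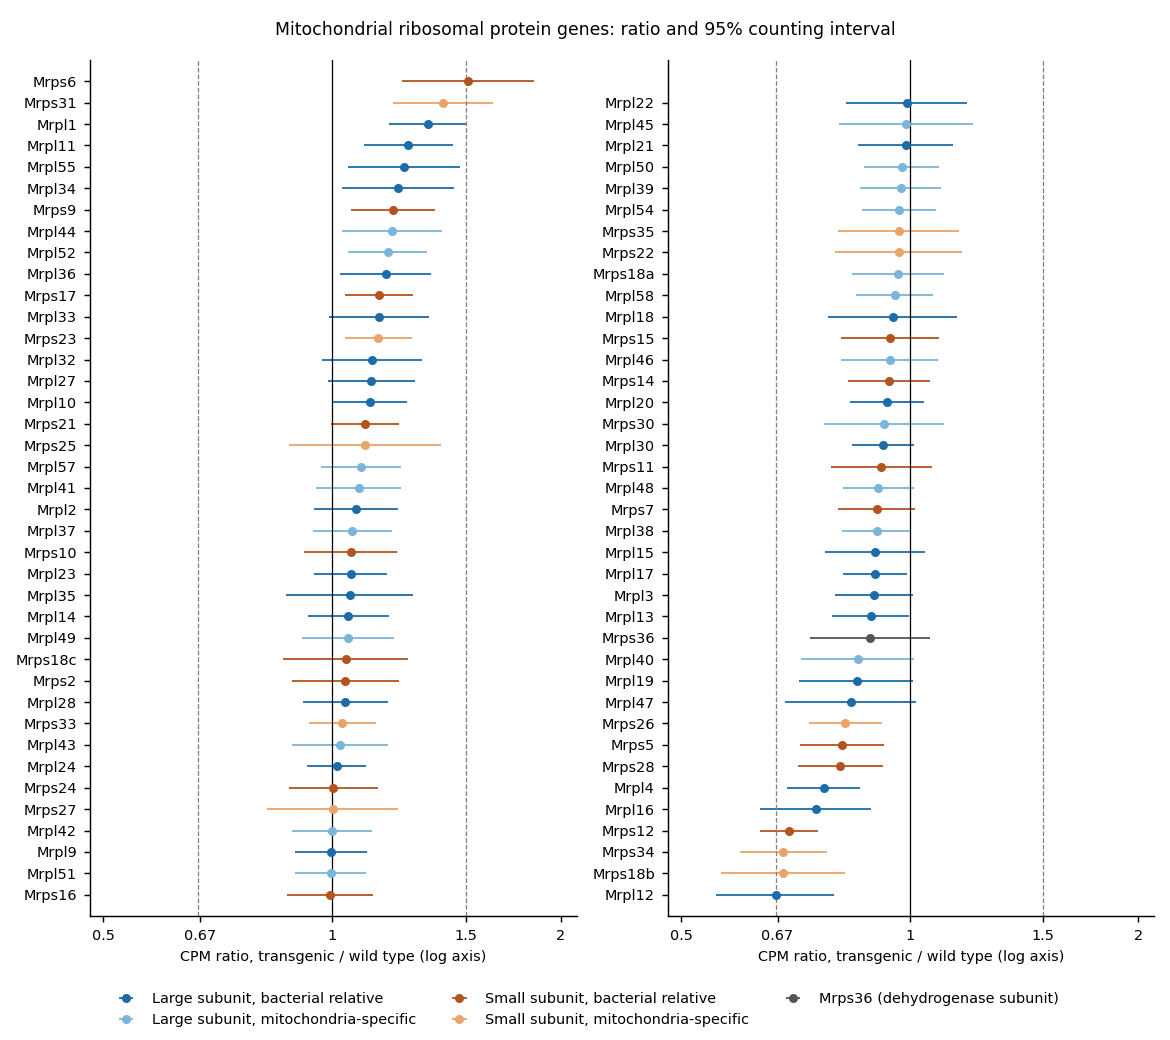
Ratio of CPM, transgenic over wild type, for all 77 members with its exact 95% counting interval, on a log axis and sorted from Mrps6 (1.51) to Mrpl12 (0.666); colours give the class and dashed lines mark 1.5-fold. Most intervals cross 1, and only the points of Mrps6 and Mrpl12 reach the dashed lines.

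The spread around that centre was narrower than that of genes of like depth. The SD of the log2 ratio was 0.23 over the 77 members, where counting error alone gives 0.10, and 0.35 over the protein-coding genes of the same range of reads, where it gives 0.11. Within 1.2-fold lay 60 of 77 members (77.9%), against 64.3% of those genes. A narrow spread was not particular to the members. In lists described below that share was 84% for assembly factors and 81.8% for tRNA synthetases. It was 60% for translation factors and 56.5% for genes of mitochondrial DNA expression. Intervals excluded 1 upward for 13 members, against 19.4% of all genes and 22.2% of those of like depth, and downward for 11, against 22.1% and 27%. The other 53 intervals held 1. This difference in spread was not tested. Past 1.2-fold with an interval that excluded 1 were 8 members on the higher side (background 14.9% of all genes and 16.1% of those of like depth) and 9 on the lower side (14.8% and 18.7%). At 2-fold there were 0 members on either side, against 4.26% of all genes higher and 2.53% lower, and 0.775% and 0.837% at like depth.

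**Figure D3:**
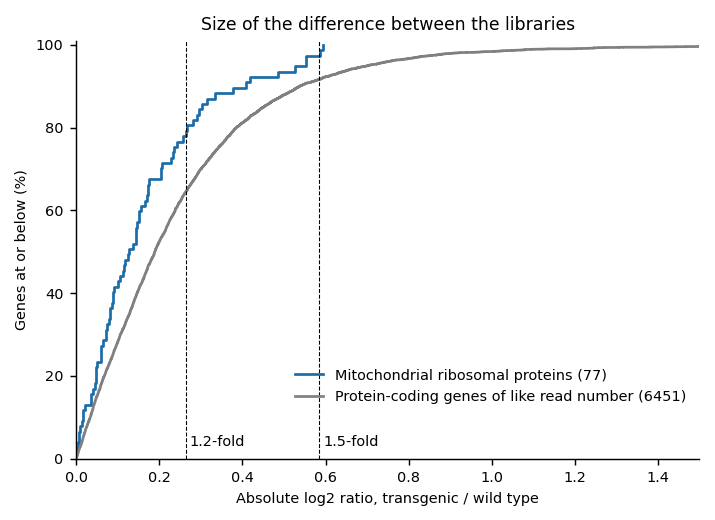
Cumulative share of genes (percent) by the absolute log2 ratio between the libraries, for the 77 members (blue) and for 6451 protein-coding genes with 308 to 2227 reads (grey), with dashed lines at 1.2-fold and 1.5-fold. At 1.2-fold the blue line has reached 77.9% and the grey line 64.3%.

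Among relatives of bacterial proteins in the large subunit, 30 genes, the median log2 ratio was 0.01 and the range ran from -0.59 to 0.42. The lowest was Mrpl12 (chromosome 11, 120484613 to 120489065), relative of the L7/L12 stalk protein, which recruits translation factors and in mammals also binds the mitochondrial RNA polymerase. It had 196 transgenic and 347 wild-type reads, or 11.5 CPM in transgenic against 17.2 CPM in wild type, and a ratio of 0.666 [0.556, 0.796], only just past 1.5-fold. Mrpl10, relative of the protein that anchors the stalk, had 609 transgenic and 641 wild-type reads (1.12 [1.00, 1.25]), and Mrpl11, relative of the protein at its base, 450 transgenic and 421 wild-type reads (1.26 [1.101, 1.44]). Mrpl1, relative of the mobile L1 stalk protein at the tRNA exit, had 614 transgenic and 542 wild-type reads and a ratio of 1.34 [1.19, 1.503].

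Mrpl4, relative of a protein in the wall of the exit tunnel, through which the nascent chain leaves the ribosome, had 533 transgenic and 816 wild-type reads (0.770 [0.689, 0.860]). The relatives of the proteins around the tunnel's opening had ratios of 0.990 (Mrpl22), 1.06 (Mrpl23), 1.01 (Mrpl24) and 0.836 (Mrpl47), each with an interval that held 1. Mrpl16, relative of a protein near the tRNA sites, had 233 transgenic and 365 wild-type reads (0.753 [0.636, 0.890]). On the other side Mrpl55 had 288 transgenic and 273 wild-type reads (1.24 [1.051, 1.47]), Mrpl34 283 transgenic and 273 wild-type reads (1.22 [1.03, 1.45]) and Mrpl36 418 transgenic and 419 wild-type reads (1.18 [1.03, 1.35]). The wild-type library is the deeper one, so like read numbers give a ratio above 1.

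The mitochondria-specific proteins of the large subunit had the smallest spread of the 4 classes, with an SD of the log2 ratio of 0.12, against 0.23 to 0.33 in the others. Their 20 measured genes had log2 ratios from -0.23 to 0.26, 19 of them within 1.2-fold, with a median of -0.02 and no call. The exception to the 1.2-fold range was Mrpl44, which carries an RNase III-like fold, at 349 transgenic and 343 wild-type reads (1.2002 [1.03, 1.40]). Mrpl52, with 557 transgenic and 555 wild-type reads (1.18 [1.051, 1.33]), was the other one whose interval excluded 1. Mrpl45, which tethers the ribosome to the inner membrane, had 182 transgenic and 217 wild-type reads (0.989 [0.808, 1.21]). Mrpl58, a peptidyl-tRNA hydrolase that rescues stalled ribosomes, had 530 transgenic and 654 wild-type reads (0.956 [0.851, 1.07]). Mrps30 and Mrps18a, named as small-subunit proteins but located in the large subunit, had ratios of 0.926 and 0.966.

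In the small subunit 17 of 26 genes lay within 1.2-fold, against 42 of 50 in the large subunit, a difference that was not tested. Mrps6 (chromosome 16, 92058270 to 92112227), relative of bacterial S6, had 233 transgenic and 182 wild-type reads, or 13.7 CPM in transgenic against 9.05 CPM in wild type, and a ratio of 1.51 [1.24, 1.84], the only member called higher. Of its exon bases 19.9% are shared on the same strand with other genes, among them the myo-inositol transporter gene Slc5a3, which had 350 transgenic and 550 wild-type reads (0.751 [0.655, 0.860]). Mrps12 (chromosome 7, 28739641 to 28741820) was the member with most reads and among the lowest, at 825 transgenic and 1402 wild-type reads, or 48.4 CPM in transgenic against 69.7 CPM in wild type (0.694 [0.636, 0.757]). The summed difference of the small subunit, 26.4 CPM, is a net of higher and lower members. The 21.3 CPM by which Mrps12 alone was lower is therefore not a share of it. Of the 26 genes, 13 lay above a log2 ratio of 0 and 13 below. Intervals lay above 1 for 5 of them and below 1 for 6, Mrps12 included. Other bacterial relatives below 1 with an interval that excluded it were Mrps28 (400 transgenic and 582 wild-type reads, 0.811) and Mrps5 (418 transgenic and 605 wild-type reads, 0.815), relative of a protein at the mRNA entry. Above 1 were Mrps9 (500 transgenic and 490 wild-type reads, 1.204 [1.06, 1.37]) and Mrps17 (745 transgenic and 762 wild-type reads, 1.15 [1.04, 1.28]). The 16 genes of this class had a median log2 ratio of -0.00.

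Among the 10 mitochondria-specific proteins of the small subunit, log2 ratios ran from -0.55 to 0.49, with a median of -0.02 and no call. Mrps31 (chromosome 8, 22411361 to 22429665) had 380 transgenic and 320 wild-type reads (1.40 [1.204, 1.63]) and Mrps23 739 transgenic and 757 wild-type reads (1.15 [1.04, 1.28]). Mrps34 (chromosome 17, 24895116 to 24897502), whose loss in mice is known to impair mitochondrial translation, had 359 transgenic and 621 wild-type reads (0.682 [0.597, 0.778]). Of its exon bases 77.8% are shared with Mapk8ip3 on the opposite strand or with Nme3 on the same strand. Mapk8ip3 had 3005 transgenic and 4267 wild-type reads (0.831 [0.793, 0.871]), and Nme3 had 0 reads in each library. Mrps18b (chromosome 17, 35910379 to 35916389) had 178 transgenic and 308 wild-type reads (0.682 [0.564, 0.822]) and shares 30.5% of its exon bases, and Mrps26 552 transgenic and 791 wild-type reads (0.823 [0.737, 0.919]). The paralogs of Mrps18b had ratios of 1.04 [0.863, 1.26] (Mrps18c) and 0.966 [0.839, 1.11] (Mrps18a). Mrps18c is listed here among the bacterial relatives, and paralogs share their descent. For Mrps18a and Mrps18b the class mitochondria-specific is therefore a listing and not a statement of origin. Mrps36, the dehydrogenase subunit, had 215 transgenic and 286 wild-type reads (0.887 [0.739, 1.06]).

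Shared exons limited some of these counts. No source used here says whether counting used strand, and 17 of the 77 members share 10% or more of their exon bases with another gene in GENCODE M21. Mrpl53 (chromosome 6, 83109040 to 83109939), with 0 reads in each library, shares 88.0% of its exon bases with another gene, nearly all with Gm42688 on the same strand, which had 9 transgenic and 7 wild-type reads. Whether the shared bases set this value was not tested. Among the 60 members without such sharing no call remained, since Mrps6 and Mrpl12 (200 of 1532 exon bases shared, with a noncoding RNA on the opposite strand) are both in the other set. Their median log2 ratio was -0.01. Processed pseudogenes of the family were nearly empty, from 0 to 31 reads over both libraries.

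GC content and length of the transcripts were set beside the ratios. Across the 77 genes Spearman's rho with the log2 ratio was -0.08 for transcript GC content and -0.15 for transcript length, given as descriptions over genes of the same 2 libraries. Members with the shortest transcripts, 418 to 1031 bases, had a median log2 ratio of 0.07, against 0.09 for 377 protein-coding genes of the same lengths and like depth. Those of middle length, 1056 to 1849 bases, had a median of -0.00, against 0.02 for 1144 such genes. Those with the longest, 1962 to 7300 bases, had a median of -0.04, against -0.03 for 4926 such genes. The medians were thus lower in longer transcripts, among members and among the other genes alike, and centring by gene length changed the calls. Mrps6 was no longer called and Mrps12 was called lower beside Mrpl12.

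Many genes of this family lie head to head with a neighbour. In the GENCODE M21 models, 23 of the 77 have such a protein-coding neighbour on the opposite strand. Its start is within 1000 bases, or overlaps theirs by up to 300. In 14 of the 23 pairs the gene and its neighbour lay on the same side of 1, which was not compared with other pairs of genes. None of these 23 neighbours was called in either direction, against 7.78% of all genes measured called higher and 5.89% lower. Mrpl43 and Twnk lie head to head in the coordinates of the count table but are not among the 23 pairs. There Mrpl43 (minus strand) starts at 45006442 and Twnk (plus strand) at 45006558, on chromosome 19. Twnk was called higher (1.65 [1.31, 2.08]). Mrps12 shares its upstream region, printed above, with Sars2, the mitochondrial seryl-tRNA synthetase. Sars2 had 126 transgenic and 160 wild-type reads (0.929 [0.730, 1.18]), an interval that overlaps that of Mrps12. Mrps18b starts 45 bases from Ppp1r10, a regulatory subunit of protein phosphatase 1, which had 758 transgenic and 640 wild-type reads and a ratio of 1.40 against 0.682 for Mrps18b. Mrps34 starts 29 bases from Eme2, at 0.934 against 0.682. At the other end, Mrpl44 and Wdfy1 both lay above 1, at 1.2002 and 1.17, as did Mrpl36 and the complex I subunit gene Ndufs6, at 1.18 and 1.08. The exons of Mrpl44 and Wdfy1 share 126 bases, and those of Mrpl36 and Ndufs6 share 30.

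**Figure D4:**
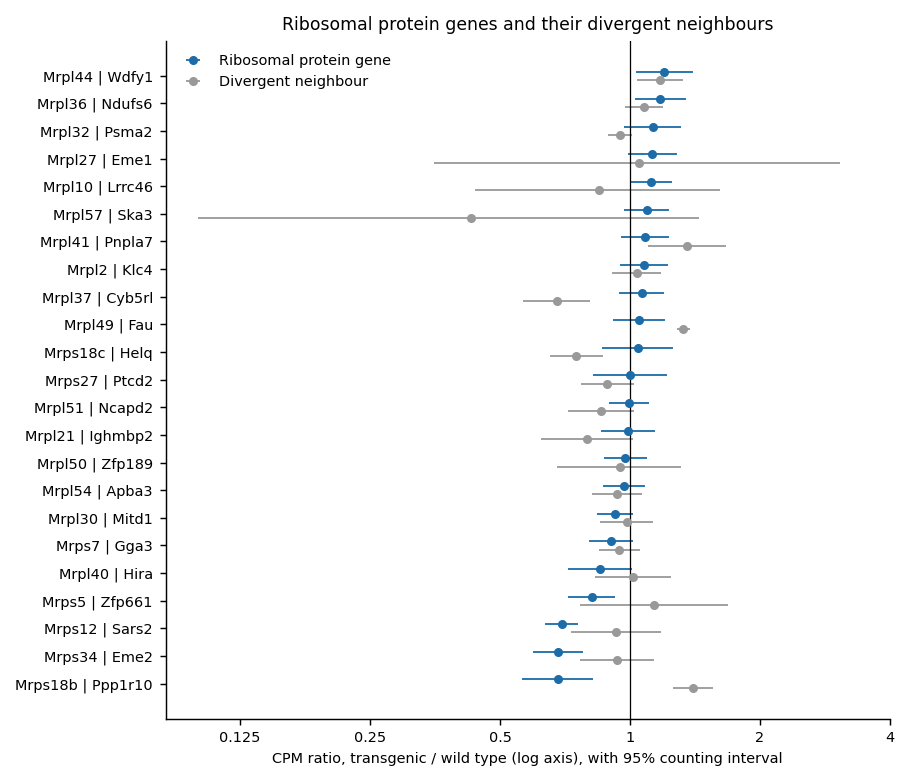
Ratio of CPM, transgenic over wild type, on a log axis with exact 95% counting intervals, for 23 ribosomal protein genes (blue, upper point of each row) and their divergent neighbours (grey, lower point). Mrps18b (0.682) and Ppp1r10 (1.40) lie farthest apart among pairs in which both genes have at least 100 reads.

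The mitochondrial ribosome has a few proteins under other names, and 5 of these were measured, at a median log2 ratio of -0.19. Of them 1 was called lower and none higher, against 5.89% and 7.78% of all genes measured. Gadd45gip1, a large-subunit protein also known as CRIF1, had 210 transgenic and 376 wild-type reads (0.659 [0.554, 0.782]), and with library totals it was no longer called. Ptcd3 had 398 transgenic and 575 wild-type reads (0.816 [0.717, 0.929]) and Chchd1, the most abundant of them per kb, 583 transgenic and 783 wild-type reads (0.878 [0.788, 0.979]). Dap3, a GTP-binding protein of the small subunit, had 853 transgenic and 903 wild-type reads (1.11 [1.01, 1.22]), and the interval of Aurkaip1 held 1.

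Genes that build and serve the mitochondrial ribosome were counted by the same rule, under which 7.78% of all genes measured were called higher and 5.89% lower. Of 25 measured assembly factors (27 listed), 1 was called higher and none lower, with a median log2 ratio of 0.06. The called gene was Ybey, an endoribonuclease of rRNA maturation, at 59 transgenic and 31 wild-type reads (2.24 [1.43, 3.59]). Of 15 measured translation factors (16 listed) none was called, with a median of 0.05. Tufm, the elongation factor that brings tRNAs, had 411 transgenic and 453 wild-type reads (1.07 [0.934, 1.23]). The initiation factors Mtif2 (1.30 [1.14, 1.49]) and Mtif3 (0.775 [0.663, 0.905]) lay on opposite sides of 1. None of 22 aminoacyl-tRNA synthetase and amidotransferase genes was called, at a median of -0.06. Gars, which also charges cytosolic tRNA, had 3166 transgenic and 3748 wild-type reads (0.996 [0.950, 1.04]).

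Transcription and maintenance of mitochondrial DNA showed a median log2 ratio of 0.09 over 23 measured genes (25 listed). Of these, 2 were called higher and none lower, against 7.78% and 5.89% of all genes measured. Twnk, the replicative helicase, had 186 transgenic and 133 wild-type reads (1.65 [1.31, 2.08]). In GENCODE M21 it overlaps 33.4% of the exon bases of Mrpl43 on the opposite strand. In the coordinates of the count table these genes do not overlap, since Mrpl43 ends at 45006442 and Twnk starts at 45006558. Mrpl43 had 352 transgenic and 405 wild-type reads (1.03 [0.886, 1.19]). Mterf2 had 95 transgenic and 74 wild-type reads (1.51 [1.11, 2.08]). Tfam, which packages mitochondrial DNA and helps start its transcription, had 613 transgenic and 557 wild-type reads (1.30 [1.16, 1.46]). Hsd17b10, the most abundant of the list per kb, had 386 transgenic and 428 wild-type reads (1.06 [0.925, 1.22]).

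Among 13 regulators of mitochondrial biogenesis the largest difference with many reads was in Ppargc1a, which encodes PGC-1alpha. It had 90 transgenic and 446 wild-type reads, or 5.28 CPM in transgenic against 22.2 CPM in wild type, a ratio of 0.238 [0.188, 0.299]. It was the only gene of these lists in the authors' deposited table of 108 genes, at a log2 fold change of -2.07, and none of the 77 members was in it. The authors' deposited table holds no gene with an absolute log2 fold change under 1.57, a size that no member reached. Myc (234 transgenic and 170 wild-type reads, 1.62 [1.33, 1.99]) was called higher, and so was Ppara, at 9 transgenic and 1 wild-type reads (10.6 [1.47, 465.3]). The factors whose motifs were searched had values near 1: Nrf1 had 399 transgenic and 505 wild-type reads (0.932 [0.815, 1.06]), Gabpa 540 transgenic and 640 wild-type reads (0.995 [0.886, 1.12]) and Yy1 1692 transgenic and 1986 wild-type reads (1.00 [0.941, 1.07]). The relatives of Ppargc1a were Ppargc1b, with 12 transgenic and 19 wild-type reads (0.745 [0.330, 1.62]), and Pprc1, with 367 transgenic and 513 wild-type reads (0.844 [0.736, 0.967]).

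The mitochondrial transcripts themselves, the rRNAs on which the proteins assemble and the mRNAs they translate, ranged more widely, at log2 ratios from -1.07 to 0.66 for the mRNAs. The large rRNA mt-Rnr2 had 9724 transgenic and 11581 wild-type reads (0.990 [0.964, 1.02]) and the small rRNA mt-Rnr1 5139 transgenic and 4750 wild-type reads (1.28 [1.23, 1.33]). Of 13 mRNAs, 3 were called lower and 1 higher, against 5.89% and 7.78% of all genes measured. Their median log2 ratio was -0.20. The lower ones were mt-Nd5 (33013 transgenic and 61241 wild-type reads, 0.636), mt-Nd4l (98 transgenic and 176 wild-type reads, 0.657) and mt-Atp8 (17 transgenic and 42 wild-type reads, 0.477), and the higher one mt-Co3 (1212 transgenic and 906 wild-type reads, 1.58). These genes are packed end to end, and mt-Nd4l and mt-Atp8 overlap their neighbours. The called mt-Atp8, mt-Co3 and mt-Nd4l lie in the stretch from mt-Co2 to mt-Nd4l. Levels in this stretch were 4.89 to 128 CPM per kb in transgenic, against 1061 to 5184 for the mRNAs outside it. Outside it, log2 ratios ran from -0.65 (mt-Nd5) to 0.09 (mt-Nd6). Why levels in the stretch were low was not tested. With library totals 2 mRNAs were called lower and 2 higher: mt-Nd4l was no longer called, and mt-Nd3, also in the stretch (347 transgenic and 276 wild-type reads, 1.48 [1.26, 1.74]), was. The most abundant per kb, mt-Co1, had 136609 transgenic and 197495 wild-type reads (0.816 [0.810, 0.822]). Summed over the 13 mRNAs the level was 21521 CPM in the transgenic and 25905 CPM in the wild-type library, a ratio of 0.831 [0.827, 0.834], beside 0.985 for the ribosomal proteins.

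**Figure D5:**
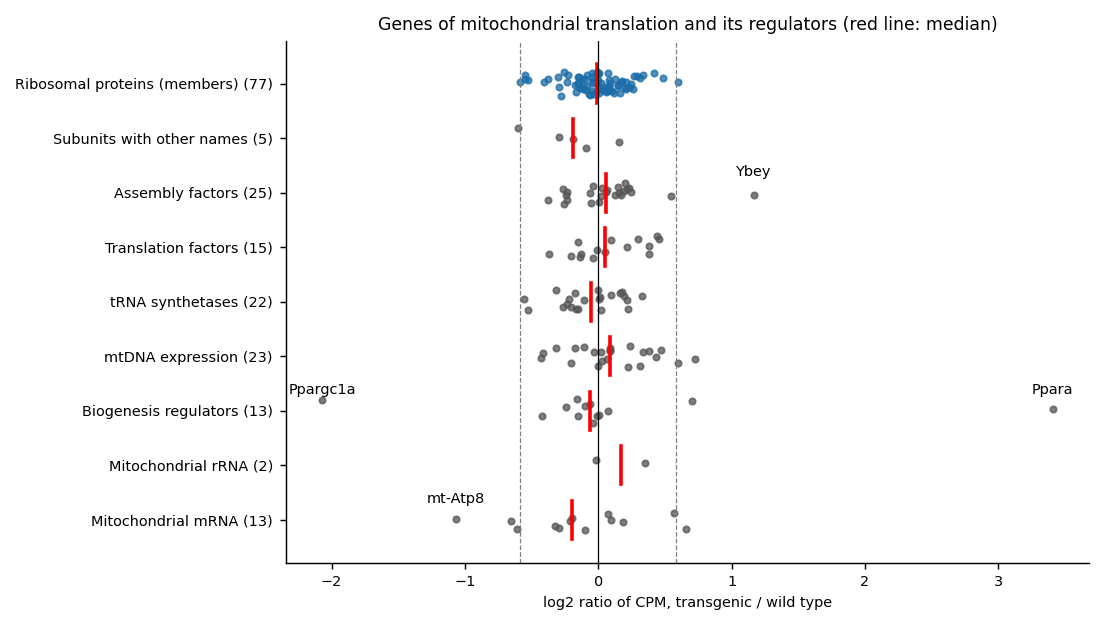
log2 ratio of CPM, transgenic over wild type, of each measured gene in groups of mitochondrial translation and its regulators, with the number of genes in brackets, red lines at the medians and dashed lines at 1.5-fold. The 77 members (top row, blue) lie between -0.59 and 0.59, and Ppargc1a lies at -2.07.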

How the data were processed

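The authors deposited raw read counts per Ensembl gene, 1 library per genotype. No source used here names the aligner, counter or build; all 77 members were found in GENCODE M21 (GRCm38), and coordinates are those of the count table. A second deposited table holds 108 genes with normalized counts (a signal scale), log2 fold changes, p-values and their adjusted values. DESeq2 1.10.1 is named in the submitters' processing notes. TMM factors (1.01 transgenic, 0.987 wild type) came from edgeR 4.0.16 under R 4.3.3, over genes with at least 10 reads. One read was worth 0.0586 CPM in the transgenic and 0.0497 CPM in the wild-type library. Ratios carry exact Clopper-Pearson 95% intervals (SciPy 1.17.1), which cover counting error only, since PCR copies cannot be told from molecules.

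Members and lists were chosen with earlier results of these data known. Genes named are the called members, the 10 highest and 10 lowest ratios with at least 100 reads, the 5 most and 5 least abundant per kb, Mrps36, and in each other list the called genes and the most abundant one. Further genes and the promoter motifs were chosen after values were seen. Transcripts and overlaps came from GENCODE M21, promoters from RefSeq (GRCm38.p6). In counts simulated with sampling error for this comparison over 17709 genes, 0 of 9509 unchanged genes with at least 300 reads were called; 40 of 40 genes planted at 2-fold and 18 of 40 at 1.5-fold were called higher. Alternatives were DESeq2 1.42.0 size factors, library totals, other gene filters and folds, TMM without hormone and acinar genes, and centring by length or GC content.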

Additional observations from a re-analysis of the deposited data

How the results depend on the processing

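The median log2 ratio of the members, -0.01, ran from -0.04 (centred by gene length) to 0.03 (library totals) and so changed sign with the scaling; the rescalings move all genes together. The single higher and lower calls sit at the threshold. The count of lower members was 0 with library totals, protein-coding genes only, at least 50 reads, at least 1 read, or GC centring (chosen after seeing the data), and 2 with length centring, where Mrps12 joined Mrpl12 and the count of higher members was 0. The ratio of Mrpl12 ran from 0.632 to 0.686 and that of Mrps6 from 1.43 to 1.55. Without the 17 members sharing exon bases, also chosen after seeing the data, both counts were 0. By construction, 1.2-fold gave 8 higher and 9 lower, 2-fold gave 0 and 0, and an interval bound past 1.2-fold gave 2 and 4. The share of reads was 0.2005% in transgenic and 0.1977% in wild type of protein-coding reads, and 0.277% in transgenic and 0.272% in wild type without hormone and acinar reads, because the denominators are smaller. Of 28 named members, all ratios stayed inside their counting intervals except those of Mrpl54 (0.863) and Mrps21 (0.987) under length centring. That centring shifts all genes of a length bin together, and both genes are short, at 825 bases (Mrpl54) and 739 bases (Mrps21). Why short genes differed from long ones was not tested. Scaling moved 3 of 117 results of the other lists: with library totals Mrpl12 and Gadd45gip1 were no longer called and 2 mitochondrial mRNAs were higher (mt-Nd4l also lost its lower call). No paired analysis was possible because each group has 1 library. The number of counted reads limits the least covered member, Mrps25, to an interval of 0.878 to 1.39.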
